A study of Rattus norvegicus with 102 samples.

Results

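Gene expression in CA1 was compared with that in CA3, the pyramidal fields at the output end and in the middle of the hippocampal circuit, in 34 rats. The comparison took the 34 libraries labelled CA1 and the 34 labelled CA3, paired by the number of the rat, with all ages together. The other 34 libraries of the series are of the dentate gyrus (DG) and served to check the labels. All rats were male Fischer 344, an inbred strain, and the labels give no engineered allele and no drug treatment. The 10 young rats were 5 to 6 months old. The aged rats were 17 to 22 months old and were split by a spatial memory score in the water maze into 12 aged-unimpaired (AU) and 12 aged-impaired (AI) rats. Each subfield was dissected by hand from the hippocampus and frozen, and poly-A RNA was sequenced on the Ion Proton, so a library holds all cell types of the piece of tissue. A lower value in such a piece can come from fewer cells of a type or from less RNA per cell, and these cannot be told apart. Rat numbers beginning with R9 (16 rats: 5 young, 6 AU and 5 AI) and numbers beginning with R1 or R2 (18 rats: 5 young, 6 AU and 7 AI) were treated as separate series, and each direction was checked in both. The study's methods describe rats of separate colonies at sites in Florida and Arizona. The numbers of young and aged rats stated there for each site equal those of the 2 series (5 and 11 in R9, 5 and 13 in R1-R2), but no label ties a rat number to a site. Series, colony and site thus cannot be told apart here.

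CA3 pyramidal cells receive mossy fibers from the granule cells of the dentate gyrus, excite one another through recurrent collaterals and send Schaffer collaterals to CA1. CA1 pyramidal cells receive the Schaffer collaterals and direct input from entorhinal cortex and project to the subiculum and out of the hippocampus. The fields differ in their receptors, in the adhesion and guidance molecules that sort these inputs, and in their vulnerability: CA1 is the field known to be sensitive to ischemia, and CA3 the field known to be prone to seizure discharge. The mouse brain atlases give each field its own marker genes, among them Wfs1 for CA1 and Grik4 for CA3.

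The values were normalized counts, which are reads per gene divided by 1 size factor for each library. The CA1 and CA3 libraries held 5360495 to 21467303 reads on genes, with a median of 9928801.5. Differences are given as log2(CA1 + 1) minus log2(CA3 + 1) within rats, so that a positive value is higher in CA1, with the standard error (SE) of limma. A gene is called when its adjusted p is under 0.05, by Benjamini-Hochberg over the 16452 genes tested, whose mean reached 5 normalized counts. Tests of a difference were two-sided.

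The labels were first checked against genes that mark the subfields. Wfs1, an endoplasmic reticulum protein and marker of CA1 pyramidal cells, ranged from 1177 to 10048 (median 6306) normalized counts in CA1 and from 557 to 4107 (median 2179) in CA3 of the R9 series, and from 1781 to 13265 (median 5111) in CA1 and 410.0 to 4339 (median 927) in CA3 of the R1-R2 series. CA1 was above CA3 in 16 of 16 and 18 of 18 rats, although the ranges of the CA1 and CA3 libraries overlapped in both series. Wfs1 was highest in the CA1 library of the rat, DG included, in 14 of 16 R9 rats and 18 of 18 R1-R2 rats. Prox1, the transcription factor of granule cells, was highest in the DG library in 12 of 16 and 18 of 18 rats.

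Grik4, the kainate receptor subunit that marks CA3, set the series apart. In R1-R2 rats it ranged from 377 to 1551 (median 620.3) in CA1 and from 1708 to 3709.5 (median 2241) in CA3. The groups did not overlap, and CA3 was higher in 18 of 18 rats (log2 difference -1.79, SE 0.142, limma adjusted p = 2.2e-12). In R9 rats it ranged from 518 to 1354 (median 816) in CA1 and from 446 to 1455 (median 878) in CA3. There CA3 was higher in 8 of 16 rats, and the difference was 0.01 (SE 0.150, adjusted p = 0.99). The libraries labelled CA3 of the R9 series thus did not stand apart from those labelled CA1 for this gene, and most results below are given by series. A value or call with no series named is over all rats.

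A few single libraries also stood apart. The library labelled CA1 of R9 rat R9869 (AU) held 1177 normalized counts of Wfs1, the lowest of the CA1 libraries, against 6394 in the library labelled DG of the same rat. The CA1 libraries of R9870 (AI) and R9865 (AU) held 164721 and 131594 normalized counts of Ttr, the transthyretin of the choroid plexus, where the median CA1 library of the R9 series held 570.4. The CA3 library of young rat R2221 held 211571 normalized counts of Mbp, a myelin protein, and 318 of the CA1 marker Mpped1, the lowest Mpped1 value of the CA3 libraries. The summed levels of the field markers in R9 rats were also set against the labels. In R9869 and in young rat R9879 both sums went against them: the CA1 markers summed to 3582 in CA1 and 5875 in CA3 of R9869 and to 11737 and 14277 in R9879, and the CA3 markers to 13414 and 9622 and to 12739 and 10363. The CA3 marker sum was also higher in CA1 in R9860 and R9865. Whether libraries were exchanged between subfields, or pieces labelled CA3 held other tissue, was not tested, so every R9 value refers to the libraries as labelled. Pooled counts of calls were repeated without the 5 rats whose Wfs1 or Prox1 was highest in another subfield's library, all of them R9 rats (R9869 and R9865 among them, R9879 and R9860 not), and without the 5 rats with more than 10000 normalized counts of Ttr in CA1 or CA3 (3 of them R9 rats), and, within the R1-R2 series, without the 4 rats numbered R19.

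**Figure D1:**
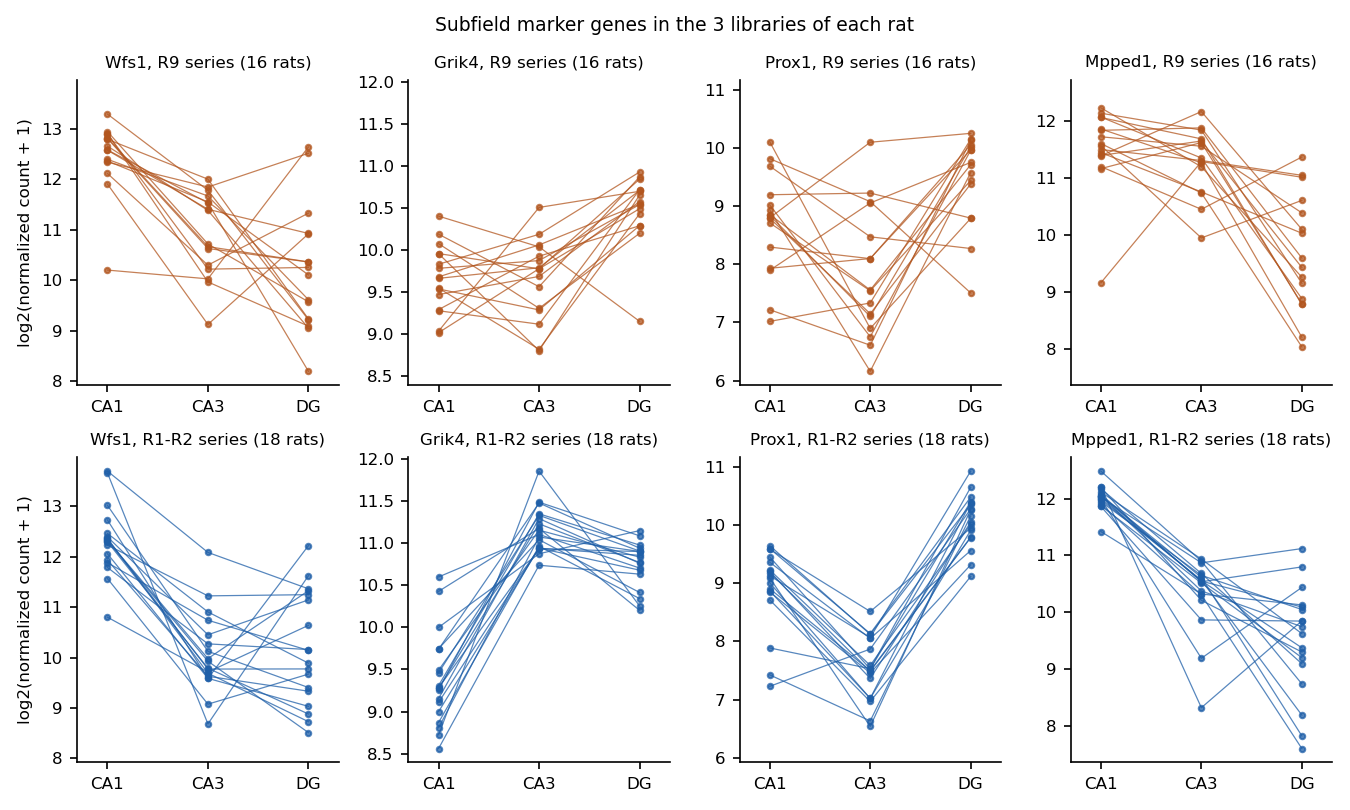
Marker genes of the subfields by rat. Each line joins the CA1, CA3 and DG libraries of 1 rat, the vertical axis is log2(normalized count + 1), and the upper and lower rows hold the 16 R9 rats and the 18 R1-R2 rats; Grik4 climbs from CA1 to CA3 in all 18 R1-R2 rats and in 8 of 16 R9 rats, while Wfs1 falls from CA1 to CA3 in all 34.

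Over all 34 rats 2302 genes were called, 1135 higher in CA1 (6.9% of the genes tested) and 1167 lower in CA1 (7.09%). Of these, 285 differed by more than 1 on the log2 scale, a factor of 2. The median difference of all genes tested was -0.01. The count of calls was 2486 without the 5 R9 rats with a misplaced Wfs1 or Prox1 and 2615 without the 5 rats high in Ttr, and 1976 without the 4 rats numbered R19. In 1997 of the 2302 genes the estimate had the same sign in both series, and in 781 the difference itself differed between the series. A call over all rats favours equal signs, so the count of 1997 does not check 1 series by the other. In 34 of 34 rats only 2 of the called genes went the same way, Wfs1 and Pip5k1b, a lipid kinase that makes phosphatidylinositol bisphosphate (log2 difference 0.62, SE 0.0619), both higher in CA1.

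The series differed in how far CA1 and CA3 stood apart. In R1-R2 rats 4080 genes were called, 1866 higher in CA1 (11.3%) and 2214 lower (13.5%), of which 855 differed by more than 1 on the log2 scale. In R9 rats 629 were called, 401 higher in CA1 (2.44%) and 228 lower (1.39%), of which 89 differed by more than 1. The CA1 and CA3 libraries did not overlap at all for 104 genes in R1-R2 (0.632%) and for 0 genes in R9 (0.0%). A test of the difference between the series called 2331 genes (14.2%). The median SE of a gene was 0.148 in R9 and 0.140 in R1-R2. Both SEs of a gene came from 1 fit with a shared spread, so they differ only by the number of rats. They do not show how far the rats of each series scattered.

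In both series at once 349 genes were called. Of these, 120 were higher in CA1 in both (0.729% of the genes tested) and 64 lower in both (0.389%). The other 165 were called in opposite directions: 131 were higher in CA1 in R9 rats and lower in R1-R2 rats (0.796%), and 34 were lower in R9 and higher in R1-R2 (0.207%). Without the 5 R9 rats with a misplaced Wfs1 or Prox1, 115 genes were called in the same direction and 95 in opposite directions.

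**Figure D2:**
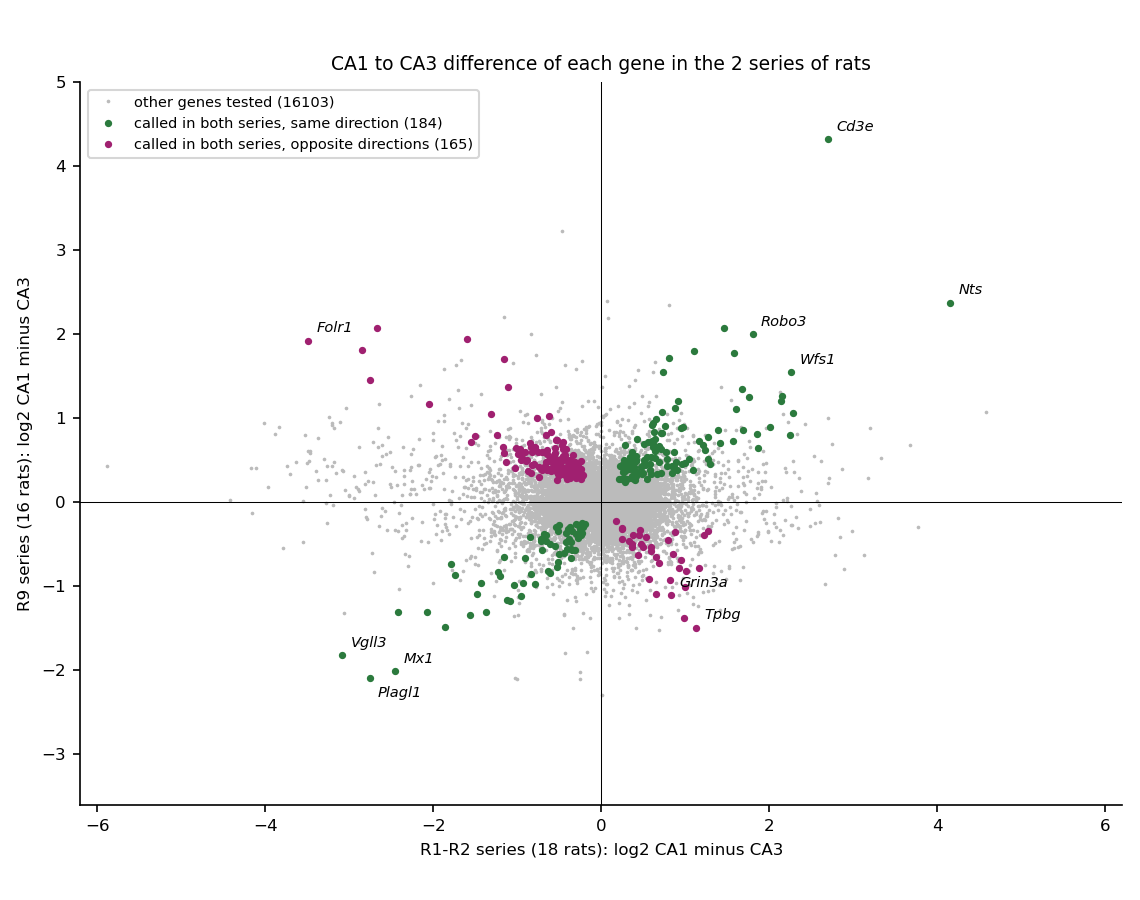
The CA1 to CA3 difference of every gene tested in the 2 series. The horizontal axis is the log2 difference in the 18 R1-R2 rats and the vertical axis that in the 16 R9 rats; green points are the 184 genes called in both series in 1 direction, purple points the 165 called in opposite directions, and the cloud is wider along the R1-R2 axis.

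Among the 12 genes with the largest difference of those higher in CA1 in both series, 2 were serotonin receptors. Htr1b, the receptor on axon terminals, held 79.4, 172 and 287 normalized counts in CA1 (lowest, median and highest) and 0, 77.2 and 159 in CA3 of R9 rats, and 98.3, 180.1 and 327 in CA1 and 14.3, 52.0 and 132 in CA3 of R1-R2 rats. The ranges overlapped in both series, with CA1 higher in 14 of 16 and 17 of 18 rats. Its log2 difference was 1.35 (SE 0.297, limma adjusted p = 0.0054) in R9 and 1.68 (SE 0.280, adjusted p = 1.2e-05) in R1-R2. Htr5b, a receptor that rodents have and humans lack in working form, held 220.3, 393 and 1468 in CA1 and 29.3, 101 and 189 in CA3 of R1-R2 rats, groups that did not overlap, and 37.8, 331 and 569 and 0, 174 and 317 in R9 rats, groups that overlapped. The differences were 2.29 and 1.06 (adjusted p = 6.5e-09 and 0.018), with CA1 higher in 18 of 18 and 15 of 16 rats.

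Nts, the neurotensin precursor, is a peptide gene of the subiculum and the neighbouring end of CA1. It ranged from 169 to 804 (median 504) in CA1 and 0 to 303 (median 34.1) in CA3 of R1-R2 rats, and from 41.8 to 697 (median 345) and 0 to 647 (median 51.7) in R9 rats. CA1 was higher in 18 of 18 and 13 of 16 rats with overlapping ranges in both series, and the differences were 4.15 (SE 0.489) and 2.38 (SE 0.519). Adcy1, the adenylyl cyclase that calcium and calmodulin activate, ranged from 1069.6 to 7692 (median 4705) in CA1 and 385 to 2597 (median 1069.7) in CA3 of R1-R2, and from 2353 to 9972 (median 5465) and 1065 to 7952 (median 2623) in R9. Both series had CA1 above CA3, in 18 of 18 and 13 of 16 rats, and the difference was larger in R1-R2 (2.01) than in R9 (0.89; adjusted p of the difference between the series = 0.0020).

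The other genes of this group were Robo3, a receptor of axon guidance at the midline (log2 difference 2.0 in R9 and 1.80 in R1-R2), Epha8, an ephrin receptor (1.80 in R9 and 1.11 in R1-R2), Dsp, the desmosomal plaque protein desmoplakin that is also a granule cell gene (0.80 in R9 and 2.25 in R1-R2), Stac, an adaptor protein of calcium channels (1.27 in R9 and 2.15 in R1-R2), Kcp, a secreted BMP regulator (2.08 in R9 and 1.46 in R1-R2), the locus AABR07049887.1 (1.20 in R9 and 2.15 in R1-R2) and Cd3e, a chain of the T cell receptor complex (4.32 in R9 and 2.69 in R1-R2). Cd3e was low throughout, with 10.6 to 125 (median 70.1) normalized counts in CA1 and 0 to 90.6 (median 0.628) in CA3 of R9 rats and 7.50 to 206 (median 15.5) and 0 to 44.8 (median 2.38) in R1-R2 rats, and it was listed at 0 in 8 and 6 CA3 libraries. CA1 was higher for Cd3e in 15 of 16 and 17 of 18 rats. Of these 12 genes, Stac, Htr5b and Dsp were not called in R9 rats without the 5 rats with a misplaced Wfs1 or Prox1 (0.998, 0.672 and 0.536, with limma adjusted p = 0.16, 0.23 and 0.40), nor was Dsp without the 5 rats high in Ttr. Prox1, which partly chose the former rats, is a granule cell gene like Dsp, so the loss of Dsp there can follow from the choice. The level in DG varied among the 120 genes: in R1-R2 rats the median DG library lay above both fields for 40 of them, between the fields for 54 and below both for 26, and in R9 rats for 34, 53 and 33.

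On the CA3 side, Slit2 and Htr7 were lower in CA1 in both series. Slit2, a secreted repellent of axons, ranged from 317 to 779 (median 521) in CA1 and 959.7 to 2032 (median 1395) in CA3 of R1-R2 rats and from 237 to 808 (median 392) and 324 to 1446 (median 897) in R9 rats. The groups did not overlap in R1-R2, where CA3 was higher in 18 of 18 rats, and overlapped in R9, where it was higher in 13 of 16. The differences were -1.43 (SE 0.165, adjusted p = 1.3e-08) and -0.96 (SE 0.175, adjusted p = 6.4e-04). Htr7, a serotonin receptor that raises cyclic AMP, ranged from 24.9 to 109 (median 70.4) against 110.3 to 385 (median 233) in R1-R2 and from 53.7 to 156 (median 81.7) against 46.4 to 265 (median 163) in R9, with differences of -1.79 and -0.73. Htr7 was not called in R9 rats without the 5 rats with a misplaced Wfs1 or Prox1 (-0.70, adjusted p = 0.15) or without the 5 high in Ttr (-0.64, adjusted p = 0.15).

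Nnat, an imprinted gene for a small membrane protein of the endoplasmic reticulum, held 1288, 2231.2 and 4000.2 normalized counts in CA1 and 1239, 8161 and 10955 in CA3 of R9 rats (lowest, median and highest) and 626, 2598 and 5752 and 3202, 6931 and 14703 in R1-R2 rats. CA3 was higher in 13 of 16 and 18 of 18 rats, with ranges that overlapped in both series, and the differences of -1.34 and -1.57 (SE 0.214 and 0.202) were close in size. Plagl1, an imprinted zinc finger transcription factor, ranged from 0 to 51.9 (median 16.6) against 6.97 to 172 (median 93.7) in R9 and from 0 to 53.2 (median 24.2) against 24.0 to 355 (median 135) in R1-R2. Its difference was -2.09 and -2.76, lower in CA1 in 12 of 16 and 18 of 18 rats. These 2 genes were on the list of CA3 markers and were its only members called lower in CA1 in both series. The study also names both for CA3, partly from these libraries.

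The other genes of the group were Vgll3, a transcription cofactor (-1.82 in R9 and -3.08 in R1-R2), Mx1, an interferon-induced GTPase (-2.01 in R9 and -2.45 in R1-R2), Tekt5, a protein of cilia and flagella (-1.30 in R9 and -2.41 in R1-R2), Lum, a proteoglycan of connective tissue (-1.31 in R9 and -2.08 in R1-R2), Cpne2, a copine (-1.48 in R9 and -1.86 in R1-R2), Itgbl1, an integrin-like secreted protein (-0.86 in R9 and -1.75 in R1-R2), Bace2, an aspartyl protease (-1.09 in R9 and -1.48 in R1-R2), and Prss22, a serine protease (-1.30 in R9 and -1.37 in R1-R2). The R9 calls of Tekt5, Cpne2 and Prss22 were lost without the 5 rats with a misplaced Wfs1 or Prox1 (-1.40, -1.65 and -1.33; adjusted p = 0.086, 0.098 and 0.084). For Mx1 the ranges were 5.32 to 63.6 (median 21.2) in CA1 and 9.29 to 323 (median 122) in CA3 of R9 rats, and 7.54 to 52.7 (median 25.7) and 37.5 to 380.5 (median 162) in R1-R2 rats, so that CA3 was higher in 11 of 16 and 18 of 18. Of 28 interferon response genes tested, Mx1 was the only 1 called over all rats and the only 1 in R9 rats, and R1-R2 rats had 1 higher and 4 lower in CA1. Over all rats 2 were lower without the 5 rats high in Ttr and 3 without the 4 rats numbered R19.

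**Figure D3:**
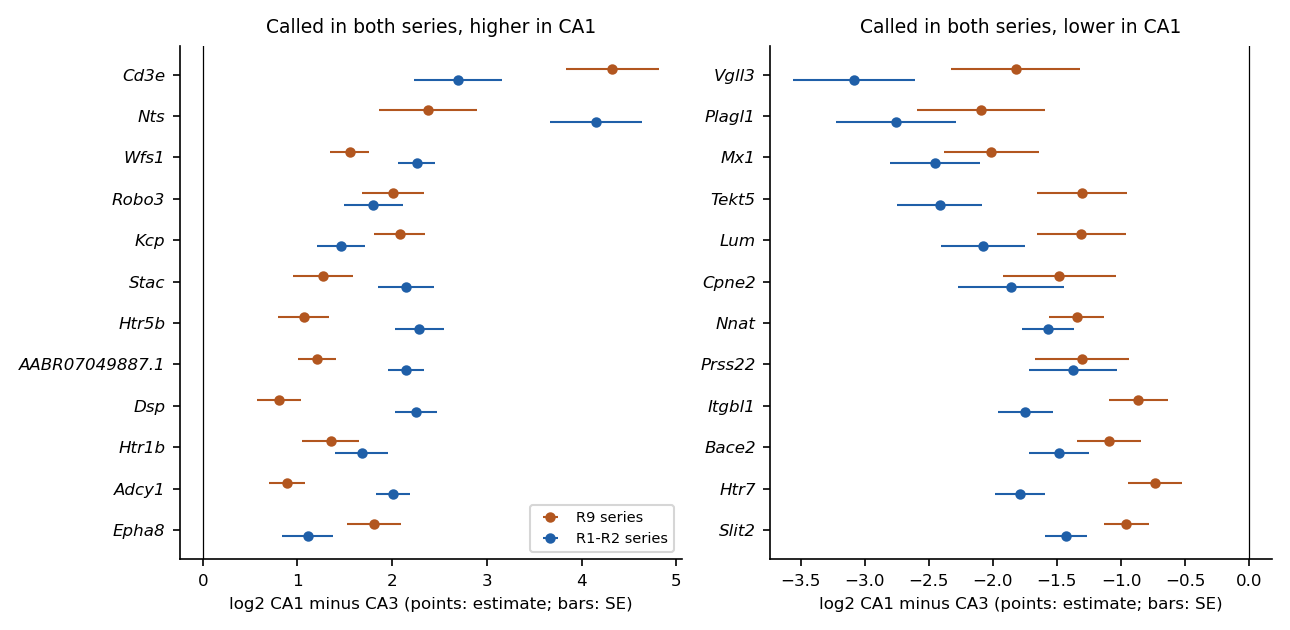
The 12 genes with the largest difference in each direction among those called in both series. Points are log2 CA1 minus CA3 estimated by limma in the 16 R9 rats (orange) and the 18 R1-R2 rats (blue), bars are standard errors, and the vertical line marks 0; the points are all above 0 in the left panel and all negative in the right one.

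The wider list of CA1 markers was read next. It was chosen with earlier results of these data known. The study names Wfs1, Nov, Ndst4, Gpr161 and Htr1b for CA1, partly from these libraries. Their calls here are thus no independent check of the labels. The counts of this list and of those below are to be read against the shares of all genes tested. Of these genes, 6.9% were higher and 7.09% lower in CA1 over all rats, and 14.2% differed between the series. The shares higher and lower were 2.44% and 1.39% in R9 and 11.3% and 13.5% in R1-R2. Of 10 CA1 markers tested, 9 were higher in CA1 over all rats and 0 lower, with a median of 1.36 against -0.01 for all genes. In R1-R2 rats 9 were higher (median 1.77) and in R9 rats 3 (median 0.40): Wfs1, Htr1b and Gpr161, an orphan receptor of the cilium (0.81 in R9 and 1.85 in R1-R2). Without the 5 R9 rats with a misplaced Wfs1 or Prox1, which were partly chosen by a member of this list, 2 were called in R9. The difference itself was larger in R1-R2 for 6 of the 10. Ndst4, a heparan sulfate sulfotransferase, differed by 3.68 in R1-R2 and 0.68 in R9 (adjusted p 1.7e-12 and 0.27), Nov, a secreted CCN protein, by 2.19 and 0.41, Mpped1, a phosphoesterase, by 1.69 and 0.23, and Man1a1, a Golgi mannosidase, by 1.23 and 0.38. Nr3c1, the glucocorticoid receptor, differed by 0.63 and 0.12. Fibcd1, a chitin-binding receptor, was the member not called in any of the 3 comparisons (0.68 and 0.19).

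The levels behind these differences moved in both fields. Mpped1 ranged from 2741 to 5730.2 (median 4202) normalized counts in CA1 and from 318 to 1959 (median 1490.1) in CA3 of R1-R2 rats, groups that did not overlap. In R9 rats it ranged from 570.4 to 4834 (median 3088) in CA1 and 987 to 4617 (median 2580.1) in CA3, where the CA3 libraries were higher than those of R1-R2 and the groups overlapped. Ndst4 ranged from 184 to 572 (median 335) and 5.72 to 104 (median 24.5) in R1-R2 and from 13.9 to 294 (median 116) and 0 to 454 (median 87.1) in R9. The summed level of the CA1 markers was 10226 to 24207 (median 15219) in CA1 and 2166 to 8466 (median 4891) in CA3 libraries of R1-R2 rats, against 3582 to 20215 (median 12810.4) and 3035 to 14277 (median 7972) in R9 rats.

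The list of CA3 markers was also chosen with earlier results of these data known. Of 15 CA3 markers tested, 9 were lower in CA1 over all rats and 0 higher (median -0.62). R1-R2 rats had 12 lower and 1 higher (median -1.29), and R9 rats had 2 lower and 1 higher (median 0.02). Cpne4, a calcium-binding copine, ranged from 324 to 2459 (median 916) in CA1 and from 2438 to 10232 (median 4924) in CA3 of R1-R2 rats, and from 289 to 2662 (median 1688) and 318 to 3137 (median 1428) in R9 rats. CA3 was higher in 18 of 18 R1-R2 rats and in 8 of 16 R9 rats, with differences of -2.51 (adjusted p = 8.5e-11) and 0.22 (adjusted p = 0.77), and the differences themselves differed (adjusted p = 2.4e-07). The same split held for Homer3, a scaffold of metabotropic receptors (-1.65 in R1-R2, 0.54 in R9), Nptx1, a pentraxin that clusters AMPA receptors (-1.24 and 0.25), Pvrl3, the nectin of mossy fiber contacts (-1.67 and -0.20), Prss35, a protease (-1.51 and 0.06), Elavl2, an RNA-binding protein (-1.29 and -0.25), and Mas1, a receptor of angiotensin fragments (-0.82 and 0.20): each was called in R1-R2, not called in R9 and different between the series.

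Bok, a member of the Bcl-2 family, was called in opposite directions: -0.99 in R1-R2 rats and 0.58 in R9 rats. Loxl1, a lysyl oxidase, was called in R1-R2 (-0.77) and differed by -0.08 in R9, and Tyro3, a receptor kinase, was higher in CA1 in R1-R2 (0.48) and differed by 0.02 in R9. Cdh24, a cadherin, and Coch, cochlin, were called in neither series (0.06 and 0.02 for Cdh24, 0.91 and -0.08 for Coch). The summed level of the CA3 markers was 8646 to 13527 (median 10732) in CA1 and 21656 to 30894 (median 25380.2) in CA3 of R1-R2 rats, which did not overlap, and 8977 to 17375 (median 11102) and 9622 to 20097 (median 16439.8) in R9 rats, which overlapped. Without the 5 R9 rats with a misplaced Wfs1 or Prox1 11 CA3 markers were lower in CA1 over all rats and 1 higher, and R9 rats still had 2 lower and 1 higher. Without the 4 rats numbered R19, 6 were lower over all rats, and Homer3, Nptx1 and Prss35 were not called (limma adjusted p = 0.12, 0.083 and 0.12).

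Markers of neighbouring fields moved as well. Of 11 granule cell markers tested, 10 were higher in CA1 than in CA3 over all rats and 0 lower (median 0.81), 11 in R1-R2 and 2 in R9, where 0 were higher and 1 lower without the 5 rats with a misplaced Wfs1 or Prox1. Prox1 is a member of this list, so the loss of calls there can follow from the choice of rats. Prox1 ranged from 149 to 801 (median 552) in CA1, 92.1 to 365 (median 182) in CA3 and had a median of 1101 in DG of R1-R2 rats. C1ql2, a secreted synapse organizer of mossy fibers, had medians of 687, 85.5 and 1234 in the same order. The CA1 pieces thus lay above the CA3 pieces and below DG for both genes. The summed level of the granule markers was 3478 to 8882 (median 7101) in CA1 and 2426 to 4529 (median 3017) in CA3 of R1-R2 rats, higher in CA1 in 18 of 18, and 2899.9 to 10563 (median 5717) and 2846 to 10508 (median 3972) in R9 rats, higher in CA1 in 10 of 16. The part of granule cells in the differences of shared genes such as Dsp was not tested.

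Of 5 subiculum markers, 3 were higher in CA1 over all rats (median 0.81): Nts, Slc17a6, the vesicular glutamate transporter of subcortical cells (0.30 in R9 and 1.52 in R1-R2), and Cntn6, a contactin (-0.22 in R9 and 1.72 in R1-R2). R9 rats had 1 subiculum marker higher and 0 lower (median 0.16). R1-R2 rats had 4 higher and 1 lower (median 1.52), and 0 lower without the 4 rats numbered R19. CA2 markers gave 2 higher and 1 lower of 11, led by Amigo2, an adhesion protein that was lower in CA1 (-0.25 in R9 and -1.59 in R1-R2), Ntf3, neurotrophin 3 (0.03 in R9 and 1.13 in R1-R2), and Ptpn5, the striatum-enriched phosphatase (0.16 in R9 and 0.25 in R1-R2). Mossy cell markers gave 1 higher (Nmb, neuromedin B, 0.94 over all rats) and 1 lower (Kit, a receptor kinase, -0.44) of 6. By series the CA2 counts were 1 and 0 in R9 and 2 and 3 in R1-R2, and those of mossy cells 0 and 0 in R9 (0 and 1 without the 5 rats with a misplaced marker) and 0 and 2 in R1-R2. Over all rats the CA2 count was 1 higher and 3 lower without the 5 R9 rats with a misplaced Wfs1 or Prox1, 1 and 1 without the 5 rats high in Ttr, and 0 and 1 without the 4 rats numbered R19, where neither Ntf3 nor Ptpn5 was called.

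The genes called in opposite directions in the series were read next. Of the 16452 genes tested 165 were called so. They held 5 of 12 oligodendrocyte markers, 1 of 8 choroid plexus markers (Folr1) and 0 of 8 ependymal markers. Other lists held some too, among them 1 of 7 oligodendrocyte precursor markers, 2 of 15 steroid receptor genes, 2 of 25 calcium handling genes and 3 of 54 axon guidance genes. The 6 with the largest difference between the series in each direction are given here. Folr1, the folate receptor of the choroid plexus, ranged from 2.52 to 1710.5 (median 29.0) in CA1 and 0 to 54.1 (median 16.6) in CA3 of R9 rats, and from 0 to 115 (median 5.56) and 21.0 to 223 (median 53.4) in R1-R2 rats. CA1 was higher in 13 of 16 R9 rats and in 1 of 18 R1-R2 rats. The log2 difference was 1.93 in R9 (SE 0.540, adjusted p = 0.034) and -3.49 in R1-R2 (SE 0.509, adjusted p = 1.2e-06). Mfrp, a frizzled-related membrane protein, differed by 2.08 and -2.67, Tp73, a p53 family transcription factor of multiciliated cells, by 1.82 and -2.84, the locus LOC690276 by 1.17 and -2.05, Rem2, a small GTPase, by 1.05 and -1.31, and Ucp2, a mitochondrial carrier, by 0.80 and -1.51. In the reverse direction, Tpbg, the trophoblast glycoprotein, differed by -1.49 in R9 and 1.13 in R1-R2, Klhl14, a Kelch protein, by -1.38 and 0.99, Slc6a5, the neuronal glycine transporter, by -1.01 and 1.0, Atp2b4, a plasma membrane calcium pump, by -0.78 and 1.17, Grin3a, an NMDA receptor subunit, by -1.11 and 0.83, and Fras1, an extracellular matrix protein, by -0.82 and 1.01. Of these 12, the R9 calls of Folr1, Tp73, Tpbg, Atp2b4 and Grin3a were lost without the 5 rats with a misplaced Wfs1 or Prox1 (limma adjusted p = 0.10, 0.072, 0.094, 0.22 and 0.072) and those of Folr1, Mfrp, LOC690276 and Klhl14 without the 5 rats high in Ttr (0.34, 0.17, 0.055 and 0.070). In R1-R2 rats the calls of Tpbg, Klhl14 and Grin3a were lost without the 4 rats numbered R19 (0.083, 0.10 and 0.093), and that of Klhl14 also without the rats high in Ttr (0.074).

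Myelin genes went in opposite directions in the series. Over all rats 0 of 12 oligodendrocyte markers were called higher in CA1 and 0 lower. In R1-R2 rats 11 were lower in CA1 (median -0.82), and in R9 rats 5 were higher (median 0.46), and 11 of 12 differed between the series. Mbp ranged from 56575 to 135099.7 (median 101266) in CA1 and 28686 to 130737 (median 59630.5) in CA3 of R9 rats and from 30673 to 104271 (median 51550.5) and 62934 to 211571 (median 95297) in R1-R2 rats. The summed level of the list was 94253 to 237354 (median 163820.0) in CA1 and 50215 to 211161 (median 103161) in CA3 of R9 rats, higher in CA1 in 14 of 16, and 61712 to 143966 (median 99157) and 119350.1 to 361451 (median 166445) in R1-R2 rats, higher in CA3 in 18 of 18. Without the 5 rats high in Ttr 11 of the 12 were higher in CA1 in R9. The part of oligodendrocytes in the opposite calls was not tested.

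The summed levels of ependymal and choroid plexus markers were higher in CA3 in 18 of 18 and 16 of 18 R1-R2 rats and higher in CA1 in 12 of 16 R9 rats for either list. Over all rats 1 of 8 ependymal markers was higher and 5 lower in CA1, and 2 were lower without the 4 rats numbered R19. The 1 higher, Rarres2, was not called without either set of 5 rats or without the 4 numbered R19. In R1-R2 rats 6 were lower and 1 higher (median -2.31), and none was called in R9 rats (median 0.35). Tmem212, a gene of ciliated cells, ranged from 0 to 27.7 (median 5.69) in CA1 and 37.6 to 195 (median 80.5) in CA3 of R1-R2 rats, groups that did not overlap (-4.16), and differed by -0.13 in R9. The summed level of the ependymal list was 206 to 536 (median 278) in CA1 and 482 to 1241 (median 687) in CA3 of R1-R2 and 222 to 915 (median 363) and 180.4 to 824 (median 283) in R9. That of the choroid plexus list was 0 to 11499 (median 59.7) and 48.1 to 15196 (median 214) in R1-R2 and 129 to 178582 (median 661) and 94.3 to 2173 (median 441) in R9, and 2 of 8 markers tested were higher in CA1 in R9 (Folr1 and Kl, klotho, 2.20) and 2 lower in R1-R2 (Folr1 and Clic6, a chloride channel protein, -1.73). The R9 median of the list was 1.65. It was 0.57 without the 5 rats high in Ttr, which were chosen by a choroid plexus gene, so a loss of calls there can follow from the choice. Without the 5 rats with a misplaced Wfs1 or Prox1 0 were called in R9. The part of these cells in the opposite calls was not tested.

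**Figure D4:**
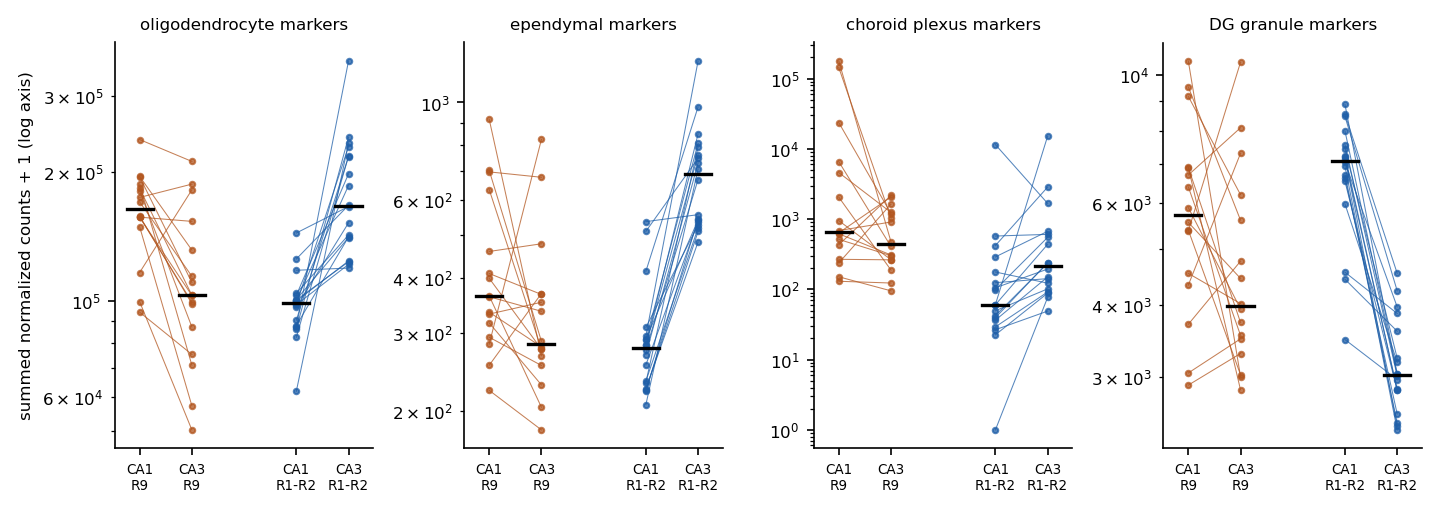
Summed normalized counts (plus 1, log axis) of 4 marker lists in the CA1 and CA3 library of each rat, joined by a line, with black bars at the medians. Oligodendrocyte sums are higher in CA1 in 14 of 16 R9 rats and higher in CA3 in 18 of 18 R1-R2 rats, and granule cell sums are higher in CA1 in 18 of 18 R1-R2 and 10 of 16 R9 rats.

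The remaining cell type lists were compared in the same way. Of 12 astrocyte markers 0 were called over all rats in either direction (median -0.03), and Gfap, the filament protein of astrocytes, was called higher in CA1 in R9 rats (0.64 in R9 and -0.12 in R1-R2; adjusted p of the difference between the series = 3.3e-04). Microglial markers gave 0 higher and 2 lower of 12, 0 and 0 in R9 and 0 and 3 in R1-R2: Cx3cr1, the fractalkine receptor (-0.27), and Itgam, an integrin (-0.35; adjusted p = 0.082 without the 4 rats numbered R19). Endothelial markers gave 2 higher of 8, Flt1, a VEGF receptor (0.29), and Vwf, von Willebrand factor (0.44; adjusted p = 0.055 without the rats numbered R19), with 0 and 0 in R9 and 6 and 0 in R1-R2. Mural markers gave 1 of 7, Abcc9, a potassium channel regulator of pericytes (0.33), with 0 and 0 in R9 and 5 and 0 in R1-R2. Over all rats 0 mural markers were called without the 5 rats high in Ttr or without the 4 rats numbered R19 (adjusted p of Abcc9 0.11 and 0.058). Oligodendrocyte precursor markers gave 0 of 7 over all rats. By series they gave 1 and 0 in R9 (0 and 0 without the 5 rats with a misplaced marker) and 0 and 4 in R1-R2. Of the 7 precursor markers 3 differed between the series, and 1 was called in opposite directions. Fibroblast markers gave 1 lower of 8 over all rats (Lum), and thalamus markers 1 lower of 8, Tnnt1, a troponin (0.15 in R9 and -3.05 in R1-R2).

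Interneuron markers gave 0 higher and 3 lower in CA1 of 16 tested (median -0.09). Among them, Lamp5, a gene of neurogliaform cells that pyramidal cells also express, differed by 0.26 in R9 and -1.53 in R1-R2, and Erbb4, the neuregulin receptor, by -0.28 in R9 and -0.40 in R1-R2. By series the counts were 0 and 1 in R9 (0 and 0 without the 5 rats with a misplaced marker) and 2 and 3 in R1-R2. Erbb4 was not called without the 5 R9 rats with a misplaced Wfs1 or Prox1, without the 5 high in Ttr or without the 4 numbered R19 (adjusted p = 0.071, 0.10 and 0.084). Gad1, the GABA-synthesizing enzyme, differed by -0.23 in R9 and 0.09 in R1-R2 and was called in neither.

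Glutamate receptors were compared family by family. Of all genes tested, 6.9% were higher and 7.09% lower in CA1 over all rats, and 14.2% differed between the series. AMPA receptors carry fast excitation. Of 13 subunits and partner proteins tested, 3 were higher and 2 lower in CA1 over all rats, with 4 and 3 in R1-R2 and 0 in R9. Cacng3, an auxiliary subunit (TARP gamma-3), ranged from 436 to 2501 (median 799) in CA1 and 29.1 to 504 (median 295) in CA3 of R1-R2 rats, and CA1 was higher in 18 of 18 (1.75). In R9 it ranged from 467 to 1201 (median 605) and 292 to 1010.3 (median 462), with CA1 higher in 12 of 16 (0.37, adjusted p = 0.30). Gria3, a channel subunit, differed by 0.35 over all rats and Shisa7, an auxiliary protein, by 0.22. Nptxr, the neuronal pentraxin receptor, was lower in CA1 (-0.30 in R9 and -1.18 in R1-R2), as was Nptx1. Gria1, the subunit that is trafficked in long-term potentiation, differed by 0.27 in R9 and 0.10 in R1-R2 and was called in neither series.

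NMDA receptors, the coincidence detectors of synaptic plasticity, included 2 subunits called higher in CA1 in both series. Grin2a, the mature GluN2A subunit, ranged from 1302 to 3249.5 (median 2585) in CA1 and 862 to 2282 (median 1566) in CA3 of R9 rats and from 1774 to 5048 (median 2734) and 1456 to 4024 (median 2243) in R1-R2 rats. The ranges overlapped, the CA1 library held more in 15 of 16 and 15 of 18 rats, and the differences were 0.68 (SE 0.112, adjusted p = 2.4e-04) and 0.28 (SE 0.106, adjusted p = 0.0499). Grin2b, the GluN2B subunit, differed by 0.49 in R9 and 0.39 in R1-R2, called in both, and Grin2c by 0.22 in R9 and 0.49 in R1-R2, called in R1-R2. Grin1, the obligatory subunit, differed by 0.12 in R9 and -0.16 in R1-R2 and was called in neither. Grin3a, a subunit that lowers calcium flow, ranged from 0 to 204 (median 102.3) in CA1 and 73.0 to 364 (median 176) in CA3 of R9 rats and from 79.1 to 383 (median 238) and 64.6 to 255 (median 139) in R1-R2 rats. It was higher in CA3 in 13 of 16 R9 rats and higher in CA1 in 18 of 18 R1-R2 rats. Of 7 members 3 were higher and 0 lower in CA1 over all rats, 2 and 1 in R9 and 4 and 0 in R1-R2. In R9 rats 1 was higher and 0 lower without the 5 rats with a misplaced Wfs1 or Prox1, and 1 was higher without the 5 rats high in Ttr, where R1-R2 had 2 higher, so at most 1 of these 2 subunits was called in R9 rats in either case.

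Kainate receptors act at mossy fiber synapses. Of 7 members 2 were higher and 2 lower in CA1 over all rats, 0 and 1 in R9 (0 and 0 without the 5 rats with a misplaced marker) and 3 and 2 in R1-R2, and 5 differed between the series. Neto1, the auxiliary protein that slows kainate receptors, ranged from 624 to 1198 (median 854) in CA1 and 2245 to 7273 (median 2797) in CA3 of R1-R2 rats, which did not overlap, and from 369 to 1588 (median 962) and 552 to 1939.8 (median 1234) in R9 rats. CA3 was higher in 18 of 18 and 11 of 16 rats (-1.83 and -0.33, adjusted p = 1.3e-11 and 0.34). Its relative Neto2 went the other way (0.70 and 0.18, called in R1-R2), as did Grik3 (0.91 and 0.02, called in R1-R2). Grik1 was higher in CA1 in R1-R2 and lower in R9 (0.37 and -0.49), and Grik2 and Grik5 were called in neither.

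Metabotropic glutamate receptors signal through G proteins. Of 10 receptors and Homer scaffolds 4 were higher and 1 lower in CA1 over all rats, 1 and 0 in R9 (0 and 0 without the 5 rats with a misplaced marker) and 5 and 1 in R1-R2. Without the 4 rats numbered R19 Grm8 was not called over all rats (adjusted p = 0.10), nor was Grm4 (0.064). Grm2, a presynaptic receptor, ranged from 245 to 1641 (median 600.4) in CA1 and 0 to 254 (median 132) in CA3 of R1-R2 rats, higher in CA1 in 18 of 18, and from 142 to 1268 (median 439) and 268 to 837 (median 533) in R9, higher in CA1 in 7 of 16. Its differences of 2.54 and -0.25 differed between the series (adjusted p = 7.7e-06). Grm8 showed the same split (2.79 and -0.62), Grm4 differed by 0.84 and 0.27, and Homer2 by 0.59 and 0.26. Grm5, a receptor of the postsynaptic rim, differed by 0.20 over all rats and was not called there.

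GABA receptors carry inhibition. Their counts stand against the same shares of all genes. Of 13 members 4 were higher and 1 lower in CA1 over all rats (3 lower without the 5 R9 rats with a misplaced Wfs1 or Prox1), with 5 and 2 in R1-R2 and 0 in R9. Gabrd, the delta subunit of extrasynaptic receptors and a gene of granule cells, ranged from 212 to 800.5 (median 403) in CA1 and 23.8 to 206 (median 115) in CA3 of R1-R2 rats, which did not overlap, and from 191 to 779 (median 358) and 122 to 589 (median 250.4) in R9 rats. The differences were 1.96 (adjusted p = 4.5e-13) and 0.47 (adjusted p = 0.082), and the median DG library held 598 in R1-R2. Gabra4 and Gabrb2 differed by 0.44 and 0.42 over all rats, both called. Gabra5, the subunit of tonic inhibition in pyramidal cells, was lower in CA1 (-0.22 in R9 and -0.80 in R1-R2).

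**Figure D5:**
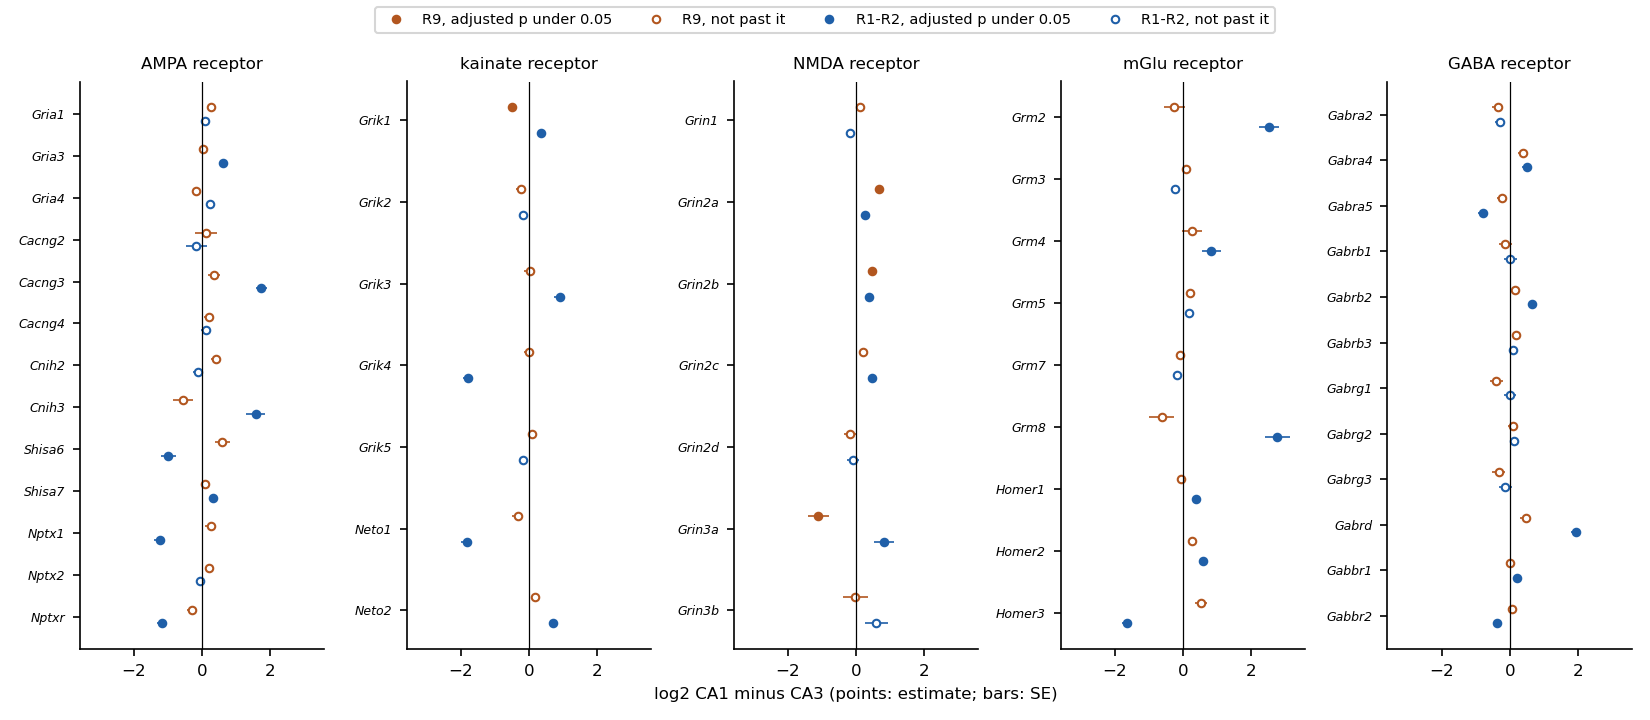
Log2 CA1 minus CA3 of glutamate and GABA receptor genes, in the R9 (orange) and R1-R2 (blue) series. Points are limma estimates, filled where the adjusted p is under 0.05, and bars are standard errors; Grik4, Neto1 and Homer3 lie far below 0 and Grm2, Grm8 and Gabrd far above it in R1-R2, while Grin2a and Grin2b are filled on the same side in both.

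Potassium channels set the resting state and firing pattern of each field. Of 57 tested, 19 were higher in CA1 over all rats and 5 lower (median 0.08), against 6.9% and 7.09% of all genes. R1-R2 rats had 23 and 13 and R9 rats 6 and 2, and 27 differed between the series (all genes 14.2%). Without the 5 R9 rats with a misplaced Wfs1 or Prox1 8 were lower over all rats. Kcnd2, the A-type channel Kv4.2 of pyramidal dendrites, ranged from 585 to 1164 (median 935) in CA1 and 282 to 818 (median 565) in CA3 of R9 rats and from 514 to 1814 (median 1066) and 424 to 1116 (median 852) in R1-R2 rats. CA1 was higher in 16 of 16 and 17 of 18 rats, and both differences were called (0.75 and 0.43, adjusted p = 5.3e-05 and 0.0020). Kcnq5, a channel of the M-current, ranged from 249 to 691 (median 421) in CA1 and 1343 to 3043 (median 2325) in CA3 of R1-R2 rats, which did not overlap, and from 279 to 1217 (median 659.9) and 359.8 to 1513 (median 817) in R9 rats. It was higher in CA3 in 18 of 18 and 10 of 16 rats. Its relative Kcnq3 was higher in CA1 in both series (0.43 in R9 and 0.22 in R1-R2).

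Kcnh7, an ERG channel, differed by 0.57 in R9 and 1.70 in R1-R2, Kcnk2, the leak channel TREK-1, by 0.49 in R9 and 1.62 in R1-R2, and Kcnab1, a beta subunit, by 0.28 in R9 and 0.67 in R1-R2, all higher in CA1 over all rats and in R1-R2. Kcnh5, another channel of the ether-a-go-go family, was called in both series (1.12 in R9 and 0.87 in R1-R2). Kcnma1, the large-conductance calcium-activated channel, was lower in CA1 (-0.13 in R9 and -0.47 in R1-R2). Kcnj10 and Kcnj16, which glia use to take up potassium, were lower in CA1 over all rats (-0.26 and -0.72), and Kcnj16 in both series (-0.84 in R9 and -0.61 in R1-R2). Kcna1, a channel of axons, was higher in CA1 in R9 and lower in R1-R2 (0.41 in R9 and -1.03 in R1-R2).

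Of 14 calcium channel genes 3 were higher and 2 lower in CA1 over all rats, 2 and 0 in R9 (1 and 0 without the 5 rats with a misplaced marker) and 4 and 6 in R1-R2. Cacna1h, a T-type channel, was higher in CA1 by like amounts in both series (0.42 in R9 and 0.47 in R1-R2), ranging from 897 to 3047 (median 1968) in CA1 and 575 to 2493 (median 1439.5) in CA3 over all rats. These ranges overlapped, with CA1 higher in 13 of 16 and 15 of 18 rats. The L-type channels split: Cacna1d (Cav1.3) was higher in CA1 (0.06 in R9 and 0.42 in R1-R2) and Cacna1c (Cav1.2) lower (-0.17 in R9 and -0.81 in R1-R2). Cacna1b, the N-type channel of terminals, was lower (-0.13 in R9 and -0.37 in R1-R2), and Cacna2d1, an auxiliary subunit, was higher (0.12 in R9 and 0.59 in R1-R2). Of 11 sodium and HCN channel genes 0 were higher and 1 lower over all rats, the latter Hcn3 (-0.61 in R9 and -0.81 in R1-R2), with 1 and 0 in R9 and 1 and 4 in R1-R2. Without the 5 R9 rats with a misplaced Wfs1 or Prox1 0 were lower over all rats (Hcn3 -0.73, adjusted p = 0.066).

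Genes of calcium handling gave 6 higher and 1 lower in CA1 of 25 over all rats, where 6.9% and 7.09% of all genes were called, and 5 and 2 in R9 (3 and 2 without the 5 rats with a misplaced marker) and 9 and 3 in R1-R2. Atp2b1, a plasma membrane calcium pump, ranged from 3904 to 11193 (median 6868) in CA1 and 3012 to 5841 (median 4305) in CA3 of R9 rats and from 5278 to 16608 (median 7885) and 3258 to 12689 (median 5324) in R1-R2 rats. CA1 was higher in 14 of 16 and 17 of 18 rats, and the differences were nearly equal (0.66 in R9 and 0.62 in R1-R2). Itpr1, the inositol trisphosphate receptor, and Slc8a2, a sodium-calcium exchanger, were also called in both series (0.42 in R9 and 0.39 in R1-R2, and 0.49 in R9 and 0.35 in R1-R2). Ryr1, a ryanodine receptor, differed by 0.37 in R9 and 0.57 in R1-R2. Hpcal1, a calcium sensor, was lower in CA1 (-0.89 in R9 and -0.22 in R1-R2), and its relative Hpca, hippocalcin, was called in opposite directions (0.80 in R9 and -1.24 in R1-R2), as was the pump Atp2b4.

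Of 46 kinase, phosphatase and second messenger genes 12 were higher and 6 lower in CA1 over all rats (all genes 6.9% and 7.09%). R9 rats had 8 and 3 and R1-R2 rats 11 and 13, and 21 differed between the series (all genes 14.2%). Without the 5 R9 rats with a misplaced Wfs1 or Prox1 11 were lower, and without the 5 rats high in Ttr 10. Besides Adcy1, the cyclase Adcy2 was higher (0.15 in R9 and 1.11 in R1-R2), and so were the diacylglycerol kinases Dgki (0.52 in R9 and 1.27 in R1-R2) and Dgkh (0.78 in R9 and 1.28 in R1-R2), both called in each series. Ppp3ca, the catalytic subunit of calcineurin, was called higher in CA1 in both series as well (0.84 in R9 and 0.63 in R1-R2), with 3683 to 28889.6 (median 7468) normalized counts in CA1 and 2595 to 20149 (median 4831) in CA3 over all rats. On the CA3 side, Prkca, protein kinase C alpha, ranged from 979.6 to 2310.3 (median 1367) in CA1 and 2676 to 4607 (median 3766) in CA3 of R1-R2 rats, groups that did not overlap (-1.42), and differed by 0.12 in R9. Rasgrf2, an exchange factor of Ras, behaved alike (0.13 in R9 and -1.44 in R1-R2), while Camk1g, a calmodulin kinase, and Mapk3, the kinase ERK1, were lower in CA1 over all rats (-0.45 in R9 and -0.92 in R1-R2, and -0.32 in R9 and -0.35 in R1-R2).

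Immediate early genes, which neuronal activity induces, gave 6 higher and 1 lower in CA1 of 17 over all rats (median 0.19), where 6.9% and 7.09% of all genes were called, and 3 and 0 in R9 and 8 and 2 in R1-R2. Arc, a regulator of AMPA receptor uptake, ranged from 654 to 2639 (median 1444) in CA1 and 529 to 2199 (median 896) in CA3 of R9 rats and from 908 to 2840.2 (median 1493) and 461 to 1501 (median 869) in R1-R2 rats. The CA1 library was the higher in 13 of 16 and 18 of 18 rats, with differences of 0.60 and 0.87 (adjusted p = 0.034 and 5.0e-05). The transcription factors Egr1 (0.63 in R9 and 0.72 in R1-R2) and Nr4a1 (0.60 in R9 and 0.77 in R1-R2) were called in both series too. Junb differed by 0.33 in R9 and 0.45 in R1-R2. Nr4a3 was the member lower in CA1 (-0.02 in R9 and -0.58 in R1-R2). In R9 rats the calls of Arc, Egr1 and Nr4a1 did not stand without the 5 rats high in Ttr (0 of 17 called).

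Axon guidance genes, which route the inputs of each field, gave 11 higher and 9 lower in CA1 of 54 over all rats (all genes 6.9% and 7.09%). R9 rats had 9 and 3 (5 and 2 without the 5 rats with a misplaced marker) and R1-R2 rats 14 and 17. Between the series 26 differed (all genes 14.2%). Slit2 was lower in CA1 and Robo3, a divergent receptor of the Slit receptor family, higher. Plxnd1, a semaphorin receptor, ranged from 484 to 1022 (median 748) in CA1 and 161 to 372 (median 254) in CA3 of R1-R2 rats, which did not overlap, and from 523 to 1068 (median 662) and 119 to 833 (median 490.0) in R9 rats. It was higher in CA1 in 18 of 18 and 12 of 16 rats and called in both (1.57 and 0.73). Epha7 and Epha8, ephrin receptors, were called higher in both (0.89 in R9 and 0.98 in R1-R2 for Epha7). Unc5c, a netrin receptor, Nrp2, a semaphorin co-receptor, and Sema4a, a semaphorin, were lower in CA1 over all rats (-0.67, -0.67 and -0.37), without a call in R9 (-0.26, -0.11 and -0.35).

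Among 24 cadherins 4 were higher and 3 lower in CA1: Cdh6, Cdh10, Cdh13 and Cdh22 (0.50, 0.31, 0.53 and 0.96 over all rats) against Cdh9, Pcdh18 and Pcdh20 (-0.61, -0.49 and -0.48). Cdh9 is the cadherin known at mossy fiber synapses. It ranged from 88.2 to 728 (median 259) in CA1 and 239 to 1492 (median 466) in CA3 of R1-R2 rats and from 30.6 to 374 (median 175) and 36.0 to 624 (median 224) in R9. Of the 3 lower, 1 was called without the 5 rats high in Ttr and 0 without the 4 rats numbered R19. Cdh6 was the only one called in both series (0.45 in R9 and 0.54 in R1-R2). By series the cadherins gave 1 and 0 in R9 and 5 and 3 in R1-R2. Of 43 synaptic adhesion genes 10 were higher and 8 lower over all rats (all genes 6.9% and 7.09%), 2 and 3 in R9 and 11 and 11 in R1-R2. Lphn2, a latrophilin that places entorhinal synapses on CA1 dendrites, ranged from 949 to 1715 (median 1214) in CA1 and 89.7 to 497 (median 219.7) in CA3 of R1-R2 rats, which did not overlap (2.62), and from 469 to 1346 (median 889) and 176 to 1415 (median 718) in R9, which overlapped (0.49, adjusted p = 0.091). Cntn4, a contactin, Lrrtm4, a leucine-rich repeat protein of excitatory synapses, and Tenm3, a teneurin, were higher in CA1 (0.84, 0.66 and 0.33), and Ncam2, L1cam and Tenm4 lower (-0.49, -0.28 and -0.48), the last 2 in both series.

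Of 55 transcription factors 17 were higher in CA1 over all rats and 3 lower (median 0.18), where 6.9% and 7.09% of all genes were called. By series the counts were 4 and 3 in R9 and 24 and 6 in R1-R2. Bcl11b (Ctip2), which marks CA1 and granule neurons, ranged from 931 to 1646 (median 1215) in CA1 and 203 to 553 (median 386) in CA3 of R1-R2 rats, which did not overlap, and from 593 to 1475 (median 1049) and 287 to 1239.7 (median 538) in R9 rats. CA1 was higher in 18 of 18 and 14 of 16 rats (1.69 and 0.86, both called). Zfhx4, a zinc finger homeobox factor, was called in both (1.12 in R9 and 1.61 in R1-R2), whereas Hlf, a PAR bZIP factor, and Lmo3, a LIM-only protein, were called in R1-R2 and not in R9 (0.35 in R9 and 1.47 in R1-R2, and 0.11 in R9 and 0.86 in R1-R2). Lower in CA1 were Plagl1, St18, a zinc finger factor (-0.18 in R9 and -1.19 in R1-R2), and Nr2f2 (COUP-TFII), a factor of caudal interneurons and of ventral hippocampus, which was called in both (-1.11 in R9 and -0.95 in R1-R2). Nr2f2 ranged from 51.5 to 409 (median 164) in CA1 and 48.7 to 791 (median 364) in CA3 over all rats.

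Of 35 monoamine and acetylcholine receptor genes 6 were higher and 7 lower in CA1 over all rats (all genes 6.9% and 7.09%). R9 rats had 5 and 6 (3 and 4 without the 5 rats with a misplaced marker) and R1-R2 rats 9 and 6. Beside the serotonin receptors above, Htr3a, the ion channel receptor of interneurons, and Htr2a were lower (-0.59 and -0.69), each called in R9 (-0.93 and -1.12) and not in R1-R2 (-0.30 and -0.31). The noradrenaline receptors parted: Adra2c was higher in CA1 in R1-R2 (0.25 in R9 and 1.91 in R1-R2) and Adra2a lower in R9 (-0.88 in R9 and -0.29 in R1-R2). Drd5, the dopamine receptor D5, ranged from 21.1 to 125 (median 62.0) in CA1 and 0 to 33.1 (median 13.3) in CA3 of R1-R2 rats, with CA1 higher in 18 of 18, and differed by -0.24 in R9. Chrna7, the alpha-7 nicotinic receptor, was lower in CA1 (-0.62 in R9 and -0.31 in R1-R2). Chrm1, the main muscarinic receptor of pyramidal cells, differed by 0.42 in R9 and -0.02 in R1-R2.

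Peptide and lipid signalling gave 9 higher and 12 lower of 41 over all rats (all genes 6.9% and 7.09%). R9 rats had 4 and 5 (1 and 4 without the 5 rats with a misplaced marker) and R1-R2 rats 11 and 11. Npy2r, the presynaptic neuropeptide Y receptor, ranged from 0 to 138 (median 54.4) in CA1 and 199 to 516 (median 315) in CA3 of R1-R2 rats, which did not overlap (-2.73), and from 5.56 to 184 (median 51.7) and 4.65 to 219.8 (median 113) in R9 (-0.60, adjusted p = 0.60). Pdyn, prodynorphin, which mossy fibers of granule cells carry, ranged from 333 to 1244 (median 897) and 15.0 to 491 (median 103) in R1-R2 (3.18) and differed by 0.29 in R9. Tac2, a tachykinin precursor, was called higher in both series (0.43 in R9 and 0.79 in R1-R2), and Oprl1, the nociceptin receptor, lower in both (-0.43 in R9 and -0.38 in R1-R2). The somatostatin receptors parted, Sstr4 being higher in CA1 (0.36 in R9 and 0.67 in R1-R2) and Sstr3, the receptor of cilia, lower (-0.25 in R9 and -0.71 in R1-R2). Gpr26, an orphan receptor, was lower (-0.39 in R9 and -0.88 in R1-R2).

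Of 15 steroid and thyroid receptor genes and their partners 1 was higher in CA1 over all rats, the glucocorticoid receptor Nr3c1, and 5 were lower, with 2 and 3 in R9 (0 and 1 without the 5 rats with a misplaced marker) and 2 and 5 in R1-R2. Esr1, the estrogen receptor alpha, ranged from 0 to 20.8 (median 5.46) in CA1 and 8.34 to 113 (median 28.0) in CA3 of R1-R2 rats (-2.29) and from 1.26 to 44.7 (median 7.91) and 0 to 40.1 (median 14) in R9 (-0.64, adjusted p = 0.54). Its levels were near the filter of 5 in CA1. Pgr, the progesterone receptor, Thra, a thyroid hormone receptor, and Rxrg, a retinoid receptor, differed by -0.37, -0.24 and -0.73. Nr3c2, the mineralocorticoid receptor, was called in opposite directions (0.35 in R9 and -0.29 in R1-R2).

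Of 52 genes of transmitter release tested 23 were lower in CA1 over all rats and 11 higher (median -0.20), where 7.09% and 6.9% of all genes were called, 24 and 12 in R1-R2 and 4 and 2 in R9, where 2 were lower without the 5 rats with a misplaced Wfs1 or Prox1. Sv2b, a vesicle glycoprotein, ranged from 2352 to 8814 (median 5275) in CA1 and 6823 to 12866 (median 9325) in CA3 of R1-R2 rats and from 2623 to 6263 (median 4335) and 2987 to 7899.7 (median 5482) in R9 rats, lower in CA1 in 18 of 18 and 13 of 16 (-0.85 and -0.41, both called). Syn2, synapsin II, was also called in both (-0.43 in R9 and -0.71 in R1-R2), and the SNARE protein Snap25 and the complexin Cplx1 over all rats (-0.41 and -0.40). Slc30a3, the zinc transporter ZnT3 of glutamatergic vesicles, was higher in CA1 in both series (0.68 in R9 and 1.22 in R1-R2), as was Syt7, a calcium sensor of slow release (0.55 in R9 and 0.34 in R1-R2), and Doc2b, another calcium sensor, was higher over all rats (1.04). Slc30a3 ranged from 606 to 2661 (median 1611) in CA1 and 259.8 to 1536 (median 714) in CA3 of R1-R2 rats. Of 12 genes on a list of neuronal genes 8 were lower in CA1 over all rats and 2 higher. In R9 0 were lower and 1 higher (median -0.10) and in R1-R2 8 and 0 (median -0.40). Slc17a7, the vesicular glutamate transporter, and Thy1 were among those lower (-0.39 and -0.39), while Camk2a and Rbfox3, the neuronal nuclear antigen NeuN, were higher (0.32 and 0.52), Rbfox3 not without the 5 rats high in Ttr (adjusted p = 0.074).

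Of 44 extracellular matrix genes 4 were higher and 4 lower in CA1 over all rats, where 6.9% and 7.09% of all genes were called. By series the counts were 2 and 2 in R9 (1 and 1 without the 5 rats with a misplaced marker) and 10 and 10 in R1-R2. The heparan sulfate enzymes Ndst3, Ndst4 and Hs6st2 and the glypican Gpc4 were higher (1.02, 2.27, 0.67 and 1.08), and Sulf2, which removes sulfate from the same chains, was lower (-0.71). Spock1, a proteoglycan known as testican, ranged from 1011 to 1459.6 (median 1227) in CA1 and 2371 to 4376 (median 2902) in CA3 of R1-R2 rats, which did not overlap (-1.28), and differed by -0.23 in R9. Its relative Spock2 and Acan, the aggrecan of perineuronal nets, were lower in CA1 as well (-0.32 and -0.47). In R9 rats none of these genes was called.

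Growth factors and their receptors gave 5 higher and 3 lower of 28 over all rats, 2 and 1 in R9 (1 and 1 without the 5 rats with a misplaced marker) and 5 and 3 in R1-R2, and over all rats 3 were higher without the 5 R9 rats with a misplaced Wfs1 or Prox1 or without the 5 rats high in Ttr or the 4 numbered R19. Nrg2, a neuregulin, and Igfbp4, a binding protein of insulin-like growth factors, were higher in CA1 over all rats (0.73 and 0.88), and Fgf12, an intracellular partner of sodium channels, was lower (-0.29). Stress and antioxidant genes gave 2 higher and 4 lower of 36 over all rats, where 6.9% and 7.09% of all genes were called. They gave 2 and 0 in R9 (1 and 0 without the 5 rats with a misplaced marker) and 1 and 8 in R1-R2, and over all rats 7 lower without the 5 rats high in Ttr. Examples were Cat, catalase (-0.40), and Hspa8, a heat shock protein (-0.23).

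Whether the CA1 to CA3 difference varied with age and cognitive status was tested over the young, AU and AI rats with a subfield effect for each series. The F test of limma called 0 genes, edgeR and DESeq2 on the recovered reads called 0 as well, and 390 genes (2.37% of those tested) had an unadjusted p under 0.05. The difference of Wfs1 was 2.38 ± 1.11 in young (SD, n = 10), 1.78 ± 0.979 in AU (n = 12) and 1.69 ± 0.724 in AI rats (n = 12), that of Grik4 was -0.94 ± 1.08 in young (SD, n = 10), -0.60 ± 1.13 in AU (n = 12) and -1.28 ± 1.1 in AI rats (n = 12), and that of Slit2 was -1.28 ± 0.773 in young (SD, n = 10), -1.07 ± 1.05 in AU (n = 12) and -1.28 ± 0.440 in AI rats (n = 12). The spread within a condition was larger than the distance between conditions for all 3 genes. The SDs given here pool the rats of both series, so they also hold the gap between the series. The F test fitted the series separately, so these SDs are not the spread it used. Adcy1 had the smallest unadjusted p among the field markers and the genes called in both series that are named here, with 2.10 ± 0.833 in young (SD, n = 10), 1.03 ± 0.863 in AU (n = 12) and 1.43 ± 1.01 in AI rats (n = 12) (unadjusted p = 0.0018, limma), and it was not called.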

How the data were processed

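The authors dissected CA1, CA3 and DG, sequenced poly-A RNA on the Ion Proton, aligned the reads to rn5 with TopHat2 and Bowtie2, counted them per gene with featureCounts 1.4.4 and divided each library by a DESeq2 1.10.1 size factor. The deposited values are this signal, normalized counts, in 1 table of 26689 genes. Of these, 4719 had no symbol there and 453 of them were named from a supplementary table. Multiplied by the size factor, 100% of the values were whole (tolerance 0.01), which gave the reads per gene. The strand setting of the counting is not given in the sources used here, so overlapping and antisense genes cannot be told apart.

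Log2(value + 1) of the 16452 genes whose mean over the 68 libraries reached 5 was fitted with limma 3.58.1 (R 4.3.3), with a trend and the rat as block. CA1 and CA3 libraries of 1 number come from 1 animal by the labels. Their deviations from the group means correlated by -0.299 to 0.517 over the 34 rats (median 0.0739), over 0.1 in 14. The R9 and R1-R2 effects and their difference came from 1 fit. Alternatives were other pseudocounts and filters, TMM rescaling, no block, edgeR 4.0.16 and DESeq2 1.42.0 on the recovered reads, and subsets of rats. On simulated data with 200 changed genes among 16452, the test over all rats recovered 74% of changes of 0.5 and 98% of changes of 1 (log2), R9 42% and 91%, and R1-R2 44% and 92%. Among their calls 0.578%, 5.67% and 4.23% were false. The changed genes all had a mean of at least 20. Libraries were simulated with no effect of the rat and with the same spread in both series, so these shares need not hold for the real data.

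Named were the 12 genes with the largest difference in each direction called in both series, the 6 in each direction with the largest difference between the series called in opposite directions (mean of at least 20 and a symbol), all CA1 and CA3 markers, and in each other list up to 4 called genes in each direction with the smallest adjusted p. Other genes named within a list, and Pip5k1b, were chosen after their values were seen. A few members that the rule or a list holds are counted but not reported here by name. The comparison, the 41 gene lists and their members were chosen with earlier results of these data known.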

Additional observations from a re-analysis of the deposited data

Results flagged for a closer look

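The CA1 to CA3 difference itself differed between the series for 2331 genes (limma, adjusted p under 0.05). These were 14.2% of the genes tested. Of the 56 field markers and genes called in both series that were examined singly, 31 differed. This count includes the named genes called in opposite directions, which were picked for a large difference between the series. That those differed follows from the choice. The values are the R9 difference minus the R1-R2 difference on the log2 scale. Among genes called in 1 direction in both series it was -1.22 for Htr5b, -0.94 for AABR07049887.1, -1.45 for Dsp, -1.12 for Adcy1 and 1.05 for Htr7, so that these genes stood further apart in R1-R2. Among genes called in opposite directions it was 5.42 for Folr1, 4.75 for Mfrp, 4.66 for Tp73, 3.22 for LOC690276, 2.36 for Rem2 and 2.30 for Ucp2, with CA1 the higher field in R9 and the lower in R1-R2. The reverse held for those at -2.62 for Tpbg, -2.37 for Klhl14, -2.01 for Slc6a5, -1.95 for Atp2b4, -1.93 for Grin3a and -1.83 for Fras1. Markers of CA1 gave -1.46 for Mpped1, -1.78 for Nov, -1.04 for Gpr161, -2.996 for Ndst4 and -0.85 for Man1a1, all smaller in R9. Markers of CA3 gave 1.80 for Grik4, 1.57 for Bok, 1.04 for Elavl2, 2.73 for Cpne4, 2.19 for Homer3, 1.49 for Nptx1, 1.58 for Prss35, 1.46 for Pvrl3 and 1.02 for Mas1, all with a higher value in R9.

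In the 10 young rats, the group small enough for a check of single rats, 7 values lay apart from the other 9. Chance marks about 1 in 20 groups, and 56 genes were looked at. Rat R2221, whose CA3 library was high in Mbp, had a difference of 4.98 for Wfs1 (median of the young rats 2.26), 4.42 for Htr1b (median 1.20), 4.89 for Fibcd1 (median -0.09) and 3.89 for Mpped1 (median 0.98). Rat R9879 had 1.19 for Mx1 (median -2.34) and 1.62 for Htr7 (median -1.25), against the direction of the other young rats' median. Rat R2175 had 1.52 for Nr3c1 (median 0.47).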

How the results depend on the processing

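Over all rats the count of 2302 called genes became 453 in young rats alone and 1043 in aged rats alone, where fewer rats were fitted, and the share of calls higher in CA1 was 62.7% in young rats alone against 49.3%. In R9 rats 629 became 976 with DESeq2 on the recovered reads and 346 without the 5 rats with a misplaced Wfs1 or Prox1. The 184 genes called in 1 direction in both series became 290 and 115 under those settings, and the 165 in opposite directions became 261 and 95. Without the rat as a block (no pairing) the counts were 1975 over all rats, 1907 of them also called with it, 386 in R9, 3617 in R1-R2, 2000 for the difference between the series, 141 in 1 direction and 63 in opposite directions, and 2473 over all rats with the DG libraries in the fit. The other alternatives kept these counts within a factor of 1.5, and the count for age and cognitive status was 0 under each of them. Of 3568 values of 202 single genes, 3266 kept their direction and side of the threshold, 292 lost the call and 8 gained it. The other 2 reversed: Cdh24 was -0.032 without the 4 rats numbered R19 (adjusted p = 0.91) and Coch -0.36 in young rats alone (adjusted p = 0.86). The causes were not tested. The settings that leave out rats by marker or number were chosen after seeing the data. Genes near 5 normalized counts rest on few reads, and 10 young rats limit the comparison of conditions.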

Other observations

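The 64 genes lower in CA1 in both series were also placed against DG. In R1-R2 rats the median DG library lay above both fields for 10 of them, between the fields for 37 and below both for 17, and in R9 rats for 27, 34 and 3. These are descriptions with no test.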
